A study of Homo sapiens with 24 samples.

Results

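The genes described here are 10 targets of NRF2, the transcription factor encoded by NFE2L2, in A549 and Huh7 cells treated with herbal extracts. They are NQO1, HMOX1, GCLM, GCLC, TXNRD1, SRXN1, SLC7A11, OSGIN1, AKR1B10 and ALDH3A1, chosen by name as well-known NRF2 targets and read from the deposited table by Ensembl identifier. All 10 of them were among the 14585 genes of the table, and all 10 passed the filter on low counts in both cell lines. A549 is a human lung adenocarcinoma line and Huh7 a human hepatocellular carcinoma line, and each label gives the genotype as wild type (WT). Besides control cells, each line had cells given an extract of Pulsatilla chinensis (labelled BTW), of Bupleurum chinense (CH) or of Polyporus umbellatus (ZL), which gave 8 groups of 3 replicates and 24 libraries. RNA was sequenced from each library. The extracts were made with ethanol, freeze-dried and dissolved again in DMSO. The dose and duration for the sequenced cells, and what the control cells received, are not given in the sources used here.

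NRF2 is held at a low level by KEAP1, which joins it to a CUL3 and RBX1 ubiquitin ligase. When electrophiles or oxidants modify KEAP1, or when SQSTM1 draws KEAP1 away, NRF2 accumulates, pairs with a small MAF protein (MAFF, MAFG or MAFK) and binds antioxidant response elements. BACH1 competes for the same elements and represses some of the targets, HMOX1 foremost. A549 cells are known to carry a loss-of-function change in KEAP1, to have constitutive NRF2 activity and to express NRF2 targets highly without any inducer.

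The members have several roles. NQO1 reduces quinones, AKR1B10 reduces reactive carbonyls and ALDH3A1 oxidizes aldehydes. GCLC and GCLM are the catalytic and modifier subunits of glutamate-cysteine ligase, the rate-limiting enzyme of glutathione synthesis, and SLC7A11 is the cystine transporter that supplies it. TXNRD1 is the cytosolic thioredoxin reductase and SRXN1 restores hyperoxidized peroxiredoxins. HMOX1 degrades heme, and OSGIN1 is an oxidative stress induced growth inhibitor.

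The core of the antioxidant response element, TGACNNNGC, was searched on both strands of the 1000 bases before the RefSeq start site (GRCh38.p14). The promoter table matched 6 of the 10 members, NQO1, GCLM, GCLC, TXNRD1, SRXN1 and OSGIN1. HMOX1, SLC7A11, AKR1B10 and ALDH3A1 had no entry. The core was present in 5 of these 6 promoters, against 33.1% of the 11758 promoters in the table, and SRXN1 held none in this window. The 5 matches are shown because they are the letters to which NRF2 could bind, each 5′ to 3′ with 10 bases on either side and the core in capitals.
NQO1: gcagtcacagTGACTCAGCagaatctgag
GCLM: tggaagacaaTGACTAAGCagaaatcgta
GCLC: aaatatgtgtTGACAGAGCaatgacctgt
TXNRD1: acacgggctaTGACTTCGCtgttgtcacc
OSGIN1: agacaatctgTGACTTGGCcccagttttc
The NQO1 window lay at chr16:69726997-69727025 on the minus strand, 455 bases before the start site and within an exon of the divergent lncRNA NQO1-DT. The GCLM window lay at chr1:93909446-93909474 on the plus strand, 34 bases before the start site, and overlapped an annotated GCLM exon. The GCLC window, chr6:53545953-53545981 on the plus strand, was 870 bases before the start site, inside the span of longer GCLC transcripts and outside their exons. The TXNRD1 window, chr12:104215670-104215698 on the plus strand, was 99 bases before the start site in sequence with no annotated gene. The OSGIN1 window, chr16:83952673-83952701 on the plus strand, was 557 bases before the start site, inside the span of longer OSGIN1 transcripts and outside their exons. A match is a description of the letters only, and no binding was measured.

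The libraries held between 6803648 and 24345364 counts, with medians of 9515659 in A549 and 12402585 in Huh7. The line labels were checked against marker genes. In Huh7 control cells ALB (albumin) had 4778 ± 89.9 CPM (counts for every 1000000 of a library, ± SD, n = 3) and AFP (alpha-fetoprotein) 2197 ± 14.7, while A549 control libraries held at most 1 and 3 counts of them. KRT7, a keratin of lung and ductal epithelium, had 1665 ± 36.3 CPM in A549 control cells and 0 counts in every Huh7 control library. SFTPB, the surfactant protein gene measured here, was at 1.28 ± 0.160 CPM in A549. Of the 8 hepatocyte genes listed for this check, 8 passed the filter on low counts in Huh7 and 4 in A549. Of the 8 lung or epithelial genes listed, the lung genes NKX2-1, SFTPC and NAPSA were absent from the table. Of the 5 that were in it, 5 passed the filter in A549 and 4 in Huh7. Presence alone thus did not separate the lines for every listed marker. PTPRC (leukocytes), PECAM1 (endothelium) and COL1A1 (fibroblasts) were at 1.49, 1.77 and 6.12 CPM on average in A549 controls and at 2.46, 35.8 and 0.729 CPM in Huh7 controls. The second ZL library of Huh7 stood apart. For each pair of replicates, the median squared difference of a gene's counts was divided by the median that sampling alone gives. This ratio was 13.3 and 17.6 for the pairs with that library, against 2.74 to 5.36 for all other pairs of replicates. Member values whose call, direction or size that library changed are given without it too. Nothing in the labels says that replicates came from separate cultures, so p-values measure only the spread between these samples.

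All 10 members were higher in A549 control cells than in Huh7 control cells. Levels are CPM after TMM scaling of the 24 libraries, and each difference was tested with edgeR's two-sided quasi-likelihood test, adjusted over the 14584 genes of that fit. Of all genes, 33.9% were higher in A549 and 36.8% lower. The members' median log2 difference was 1.63, against -0.06 over all genes. The lines also differ in tissue of origin, which cannot be told apart here from the KEAP1 change. The part of either in these differences was not tested. These levels are shares of each library's RNA, so an equal change of all genes would not be seen, and fewer RNA molecules per cell cannot be told apart from fewer expressing cells.

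The greatest contrasts were in the aldehyde and carbonyl enzymes. ALDH3A1 stood at 1306, 1310.1 and 1311 CPM in the 3 A549 control libraries and at 0.354, 1.49 and 1.43 CPM in the Huh7 control libraries, the latter from 7, 24 and 34 counts. This was a 1049-fold difference (log2 10.04 ± 0.196 SE, adjusted p = 3.215e-21, edgeR). AKR1B10 stood at 3696, 3694 and 3408 CPM in A549 and at 7.73, 5.22 and 6.42 CPM in Huh7, 540-fold apart (log2 9.08 ± 0.132, adjusted p = 4.051e-23, edgeR). AKR1B10 has a close paralog, AKR1B15, and reads that both share could have been divided between them.

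HMOX1 was 6.28-fold higher in A549, with 200, 216 and 210.4 CPM against 31.4, 36.2 and 32.1 in Huh7. SLC7A11 was 3.97-fold higher, with 849 to 910.1 CPM against 211 to 231. GCLC, SRXN1 and TXNRD1 were 3.11-, 3.10- and 3.02-fold higher, and in each of them the lines were far apart in every library. GCLM was 1.78-fold and OSGIN1 1.49-fold higher. NQO1 differed least, with 1808, 1824 and 1799.8 CPM in A549 and 1503, 1543 and 1486 in Huh7, a 1.20-fold difference (log2 0.26 ± 0.0459, adjusted p = 2.786e-05, edgeR) that was 0.39 on the log2 scale after a correction for GC content and transcript length. Of these 10 differences the control groups overlapped in none, and all 10 were called when any single library was left out. Of all genes, 33.9% were called higher in A549 and 36.8% lower with every library kept. Overlap of the groups was not counted over all genes.

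**Figure D1:**
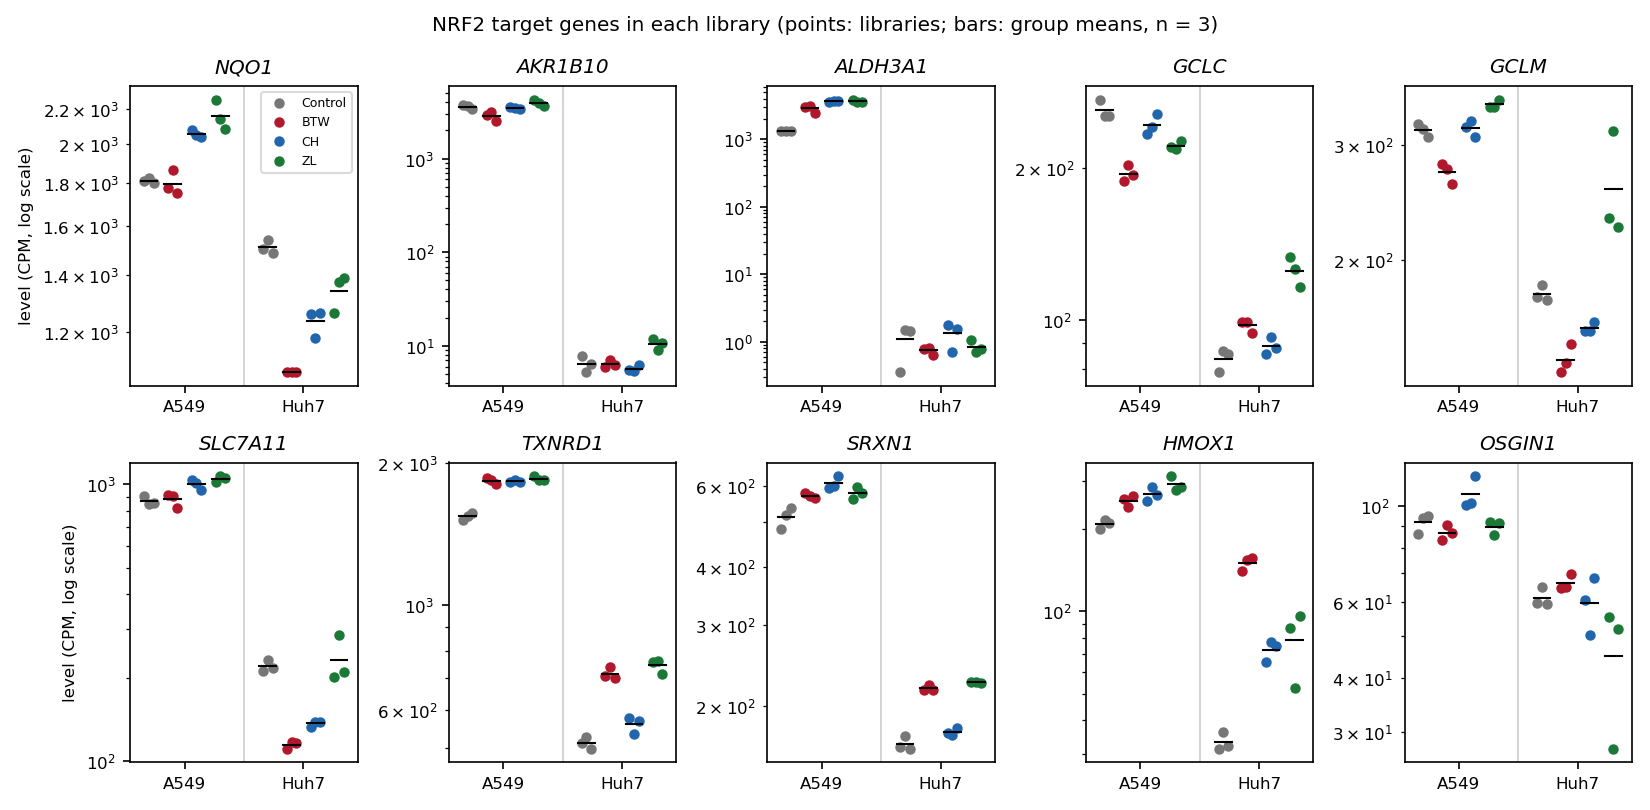
Level of each of the 10 members in every library (y axis, CPM on a log scale, with its own range in each panel), with A549 on the left and Huh7 on the right of each panel and the groups in the order control, BTW, CH, ZL. Points are libraries and black bars are means of 3; ALDH3A1 lies between 1306 and 3853 CPM in A549 and at most at 1.77 CPM in Huh7, whereas NQO1 lies in the same range of magnitude in both lines.

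The wider NRF2 pathway was described with a list of 65 further genes, of which 63 were in the table. Between the control groups 40 of the 63 were higher in A549, 14 were lower and 9 were not called, with a median log2 difference of 0.73. AKR1C3, an aldo-keto reductase of steroids and prostaglandins, had 2048 ± 74.3 CPM in A549 and 7.57 ± 0.423 in Huh7 (265-fold, adjusted p = 1.084e-21, edgeR), though reads of the near-identical AKR1C genes may be shared. CYP4F11, a fatty acid hydroxylase, was 83.2-fold and AKR1B1, aldose reductase, 35.9-fold higher in A549. NR0B1, a nuclear receptor, had 62.0 ± 3.39 CPM in A549 and 0 counts in each of the Huh7 control libraries, at least 401-fold higher against a floor of 3 counts per library. GPX3, the secreted glutathione peroxidase, was 7.58-fold lower in A549, SESN2, a sestrin of the stress response, 3.37-fold lower, and the glutathione transferases GSTM2 and GSTM4 3.22- and 2.91-fold lower.

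**Figure D2:**
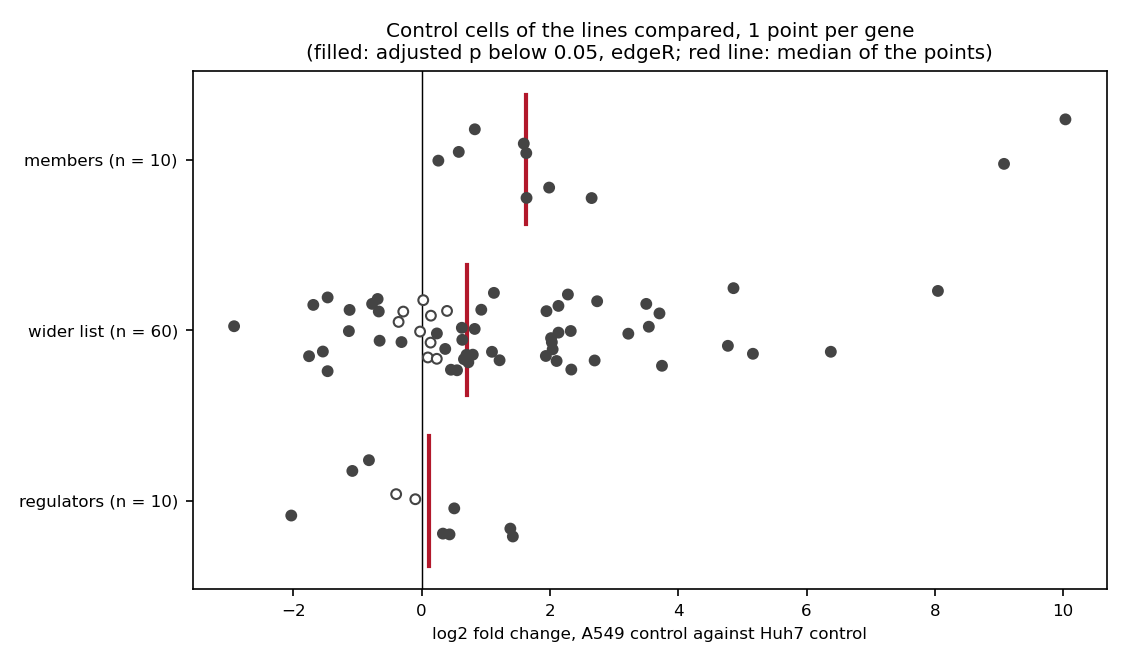
Log2 fold change of A549 control against Huh7 control (x axis), with 1 point per gene for the 10 members, 60 genes of the wider list and 10 regulators. Filled points passed an adjusted p of 0.05 and red lines are medians; all members lie to the right of 0, the wider list spreads to both sides around a median of 0.71, and 3 genes at 0 counts in the controls of one line are not drawn.

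Among the regulators, NFE2L2 mRNA was lower in A549 than in Huh7 controls, with 138 ± 2.36 CPM against 291 ± 2.08 (2.11-fold, adjusted p = 3.412e-12, edgeR). KEAP1 mRNA was not called, at 77.1 ± 4.45 and 82.6 ± 1.0 CPM. The repressor BACH1 was 1.77-fold lower in A549 and MAFF 4.09-fold lower, while MAFG and MAFK were 2.68- and 2.61-fold higher. SQSTM1 was 1.42-fold higher, and CUL3 and NFE2L1, a relative of NRF2, were also higher, by 0.44 and 0.33 on the log2 scale. The data hold no protein level of NRF2.

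In A549 cells no herb had all the members called in the same direction. P. chinensis raised 3 members and lowered 3. B. chinense raised 6 and lowered none. P. umbellatus raised 5 and lowered 1. Over all 13633 genes tested, 15.8% rose and 17.1% fell with P. chinensis, 13.1% rose and 15.0% fell with B. chinense, and 13.4% rose and 14.8% fell with P. umbellatus. The members' median log2 changes were -0.03, 0.17 and 0.15 in that order, beside 0.01, -0.0018 and -0.01 over all genes. The herbs were compared with the same 3 control libraries, so their changes share that error.

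ALDH3A1 had the largest rise of the members with each herb in A549. The control libraries stood at 1306, 1310.1 and 1311 CPM. With P. chinensis they were at 2987, 3107 and 2455, with B. chinense at 3532, 3634 and 3705, and with P. umbellatus at 3853, 3580.4 and 3564. No treated library overlapped the controls. The rise was 2.13-fold with P. chinensis (log2 1.09 ± 0.0642 SE, adjusted p = 1.382e-08), 2.70-fold with B. chinense (1.43 ± 0.0647, adjusted p = 4.668e-09) and 2.68-fold with P. umbellatus (1.42 ± 0.0647, adjusted p = 3.722e-09, all edgeR). ALDH3A1 is also a known target of the aryl hydrocarbon receptor, whose genes are described further on.

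HMOX1 and TXNRD1 also rose with all 3 herbs in A549, by less. HMOX1 went from 200 to 216 CPM in controls to 240.2 to 263 with P. chinensis, 253 to 286 with B. chinense and 279 to 312 with P. umbellatus. These were 1.19-, 1.25- and 1.34-fold changes (adjusted p = 0.005553, 0.001038 and 0.0001076, edgeR), with no overlap of the groups. TXNRD1 went from 1513, 1546 and 1569 CPM to between 1803 and 1873 in the 9 treated libraries, 1.16-, 1.15- and 1.15-fold (adjusted p at most 0.0002025, edgeR).

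SRXN1 was called with B. chinense only, where it rose 1.15-fold from 485, 518 and 538 to 594, 598 and 629.6 CPM (adjusted p = 0.003402, edgeR). Its log2 change with P. chinensis was 0.12 ± 0.0447 and with P. umbellatus 0.11 ± 0.0447, with adjusted p of 0.05119 and 0.07734, and DESeq2 called both (0.02832 and 0.03442). NQO1 rose 1.10-fold with B. chinense and 1.14-fold with P. umbellatus, from 1799.8 to 1824 CPM in controls to 2037 to 2077 and 2085 to 2255, and was at 1774, 1861 and 1749 with P. chinensis, where it was not called (adjusted p = 0.374, edgeR). SLC7A11 followed the same order, with log2 changes of -0.02 ± 0.0481 with P. chinensis (not called), 0.16 ± 0.0481 with B. chinense and 0.20 ± 0.0480 with P. umbellatus (adjusted p = 0.02264 and 0.005557, edgeR). The call with B. chinense was lost when any of 4 libraries was left out.

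The members that fell in A549 were the glutamate-cysteine ligase subunits and AKR1B10. GCLC stood at 273, 254 and 254 CPM in controls, at 189, 203 and 194 with P. chinensis and at 220.0, 218 and 226 with P. umbellatus. It fell by 0.45 on the log2 scale with P. chinensis (SE 0.0529, adjusted p = 1.395e-05, edgeR) and by 0.30 with P. umbellatus (SE 0.0525, adjusted p = 0.0006638, edgeR). With B. chinense the GCLC libraries were at 234, 241 and 256 CPM, a log2 difference of -0.14 ± 0.0527 that was not called (adjusted p = 0.0709). GCLM fell by 0.25 with P. chinensis (SE 0.0419, adjusted p = 0.0003981, edgeR), from 309 to 323 CPM to 261 to 281, and its differences of -0.03 with B. chinense and 0.07 with P. umbellatus were not called. AKR1B10 fell by 0.37 with P. chinensis (SE 0.0676, adjusted p = 0.0007552, edgeR), to 2893, 3166 and 2512 CPM, and was not called with the other two herbs. OSGIN1 was called with none of the herbs in A549, at 83.5 to 94.9 CPM in control, P. chinensis and P. umbellatus libraries and at 101 to 117 CPM with B. chinense (adjusted p = 0.07216, edgeR).

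The herbs were also set against each other in A549. P. chinensis against B. chinense called 4 members, all lower with P. chinensis, where 1.45% of all genes were called in either direction: GCLC (log2 -0.31 ± 0.0532), ALDH3A1 (-0.34 ± 0.0634), GCLM (-0.22 ± 0.0421) and NQO1 (-0.19 ± 0.0351). All 4 calls were lost when only the 6 libraries of these groups were fitted (adjusted p from 0.05563 to 0.08044), and the count fell to 1, 2, 1 and 0 without P. chinensis replicate 3 or B. chinense replicate 1, 2 or 3. DESeq2 called 7. Against P. umbellatus, 5 members were lower with P. chinensis and none higher, where 3.01% of genes were called: AKR1B10 (-0.44 ± 0.0676), ALDH3A1 (-0.33 ± 0.0634), GCLM (-0.31 ± 0.0418), NQO1 (-0.24 ± 0.0351) and SLC7A11 (-0.22 ± 0.0480). On the libraries of these groups alone, ALDH3A1 and SLC7A11 were no longer called (both adjusted p = 0.0563).

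**Figure D3:**
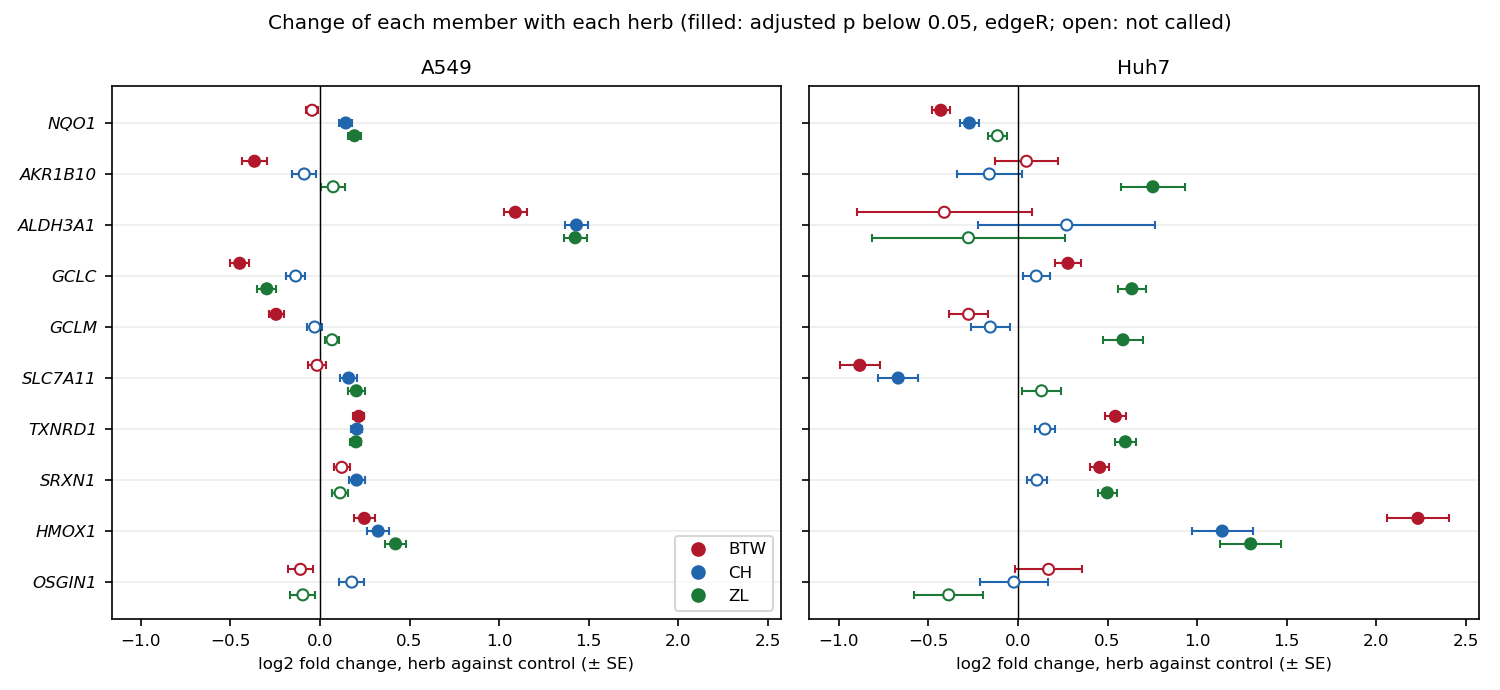
Log2 fold change of each member with each herb against the control of the same line, with its SE (x axis, the same range in both panels), in A549 on the left and Huh7 on the right. Filled circles passed an adjusted p of 0.05; ALDH3A1 stands out in A549 at 1.09 to 1.43 and HMOX1 in Huh7 at 1.14 to 2.23, and the wide bars of ALDH3A1 in Huh7 come with 5 to 34 counts per library.

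In Huh7 cells HMOX1 was the only member called higher with all 3 herbs. P. chinensis raised 4 members and lowered 2, where 10.5% of the 13875 genes tested rose and 10.5% fell. B. chinense raised 1 and lowered 2, where 0.519% rose and 0.757% fell. P. umbellatus raised 6 and lowered none, where 19.3% rose and 17.8% fell. The members' median log2 changes were 0.11, 0.04 and 0.54, beside 0.01, -0.0001 and 0.03 over all genes.

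HMOX1 stood at 31.4, 36.2 and 32.1 CPM in Huh7 controls. It was at 141, 154 and 156 with P. chinensis, at 65.3, 77.0 and 74.5 with B. chinense and at 86.9, 52.4 and 96.3 with P. umbellatus. Every treated library was above every control, and those of P. chinensis were above all others. The rise was 4.70-fold with P. chinensis (log2 2.23 ± 0.170, adjusted p = 4.005e-06), 2.20-fold with B. chinense (1.14 ± 0.169, adjusted p = 0.006212) and 2.46-fold with P. umbellatus (1.30 ± 0.170, adjusted p = 0.0005869, all edgeR). The lowest P. umbellatus value came from the library that stood apart, and without it the log2 change was 1.51 (adjusted p = 2.493e-06).

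SLC7A11 and NQO1 fell in Huh7 with P. chinensis and B. chinense. SLC7A11 went from 211, 231 and 217 CPM to 111, 117 and 116 with P. chinensis and to 133, 139 and 138 with B. chinense. It fell by 0.88 (SE 0.111, adjusted p = 0.0001689, edgeR) and by 0.67 on the log2 scale (SE 0.112, adjusted p = 0.01143, edgeR). With P. umbellatus it was at 200.4, 286 and 209.9 CPM and was not called (log2 0.13 ± 0.111), and the direction rests on the library that stood apart, without which the difference was -0.05. NQO1 went from 1486 to 1543 CPM to 1076 to 1078 with P. chinensis and 1183 to 1265 with B. chinense. It fell by 0.43 (adjusted p = 0.000104, edgeR) and by 0.27 (adjusted p = 0.02185, edgeR). The B. chinense call on NQO1 was lost in 7 of the fits that left out a library, and that on SLC7A11 in 4. With P. umbellatus NQO1 stood at 1264 to 1390.1 CPM, below all controls, but was not called (log2 -0.11 ± 0.0510, adjusted p = 0.09482). Without the library that stood apart this was a fall of 0.14 that passed (adjusted p = 0.02394, edgeR). The NQO1 difference also passed with DESeq2 (-0.14, adjusted p = 0.01358) and with voom and quality weights (-0.15, adjusted p = 0.007409). With the correction for GC content and length it was -0.27 and passed (adjusted p = 0.001301, edgeR).

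TXNRD1, SRXN1 and GCLC rose in Huh7 with P. chinensis and P. umbellatus. TXNRD1 went from 511, 526 and 497 CPM to 707, 739 and 703 with P. chinensis and to 758, 764 and 715 with P. umbellatus, 1.46- and 1.52-fold (adjusted p = 4.145e-05 and 0.0001259, edgeR). SRXN1 went from 163, 172 and 162 CPM to 216, 222 and 217 and to 226, 225 and 225, 1.37- and 1.41-fold (adjusted p = 9.823e-05 and 0.0002585, edgeR). With B. chinense their log2 changes were 0.15 ± 0.0568 and 0.11 ± 0.0541, and neither was called. GCLC went from 78.8, 86.7 and 85.7 CPM to 99.2, 99.3 and 94.4 with P. chinensis, a log2 change of 0.28 ± 0.0752 (adjusted p = 0.01975, edgeR) that was lost when any of 4 libraries was left out. With P. umbellatus GCLC was at 133, 126 and 116 CPM, 1.55-fold higher (adjusted p = 0.0003907, edgeR).

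GCLM and AKR1B10 rose in Huh7 with P. umbellatus alone among the calls. GCLM was at 176, 184 and 174 CPM in controls and at 232, 315 and 225 with P. umbellatus (log2 0.59 ± 0.109, adjusted p = 0.002576, edgeR). Its highest value was in the library that stood apart, and without it the change was 0.41 (adjusted p = 0.0001656). With the correction for GC content and length described next it was 0.23 (adjusted p = 0.007628). With P. chinensis GCLM was at 135, 139.5 and 149 CPM, below all controls, and was not called (-0.28 ± 0.109, adjusted p = 0.09504). That difference passed with voom and quality weights, with a correction for each library's dependence on GC content and transcript length, when the groups compared were fitted alone, and without the P. umbellatus library that stood apart (adjusted p from 0.0002319 to 0.000765). AKR1B10 rose 1.69-fold with P. umbellatus from a low level, 5.22 to 7.73 CPM to 9.03 to 12 (log2 0.75 ± 0.177, adjusted p = 0.006927, edgeR), and was not called on the 6 libraries of these groups alone (adjusted p = 0.0633).

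ALDH3A1, the strongest riser in A549, was called with no herb in Huh7. Its 12 Huh7 libraries held 5 to 34 counts, with log2 differences of -0.41 ± 0.489, 0.27 ± 0.494 and -0.28 ± 0.539. At this depth a change of moderate size was not detectable. OSGIN1 was also called with none, at 59.4 to 64.9 CPM in controls and at 55.3, 27.4 and 51.9 with P. umbellatus (log2 -0.39 ± 0.193, adjusted p = 0.1325, edgeR). The lowest of these was the library that stood apart, and without it the difference was -0.14. After a correction for GC content and length its difference with P. umbellatus was 0.41 in the opposite direction and passed (adjusted p = 0.01325), and SLC7A11 turned to -0.29 (adjusted p = 0.001727). With that correction 7 members rose and 2 fell with P. umbellatus. The shares over all genes given above are those without the correction.

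P. chinensis against B. chinense in Huh7 called 3 members, all higher with P. chinensis, where 7.81% of genes were called: HMOX1 (log2 1.09 ± 0.165), TXNRD1 (0.39 ± 0.0569) and SRXN1 (0.35 ± 0.0540). Without the P. umbellatus library that stood apart, which shares their estimate of the spread, 5 were called, with NQO1 and SLC7A11 lower in addition, and with the correction for GC content and length 3 were higher and 2 lower. P. chinensis against P. umbellatus called 7 members, where 35.4% of genes were called. HMOX1 (0.93 ± 0.165) and OSGIN1 (0.56 ± 0.193) were higher with P. chinensis, and SLC7A11 (-1.01 ± 0.112), GCLM (-0.86 ± 0.110), AKR1B10 (-0.71 ± 0.177), GCLC (-0.36 ± 0.0758) and NQO1 (-0.32 ± 0.0510) were lower. Without the library that stood apart the OSGIN1 value was 0.31 and called (adjusted p = 0.03587). The OSGIN1 call was lost in 7 of the fits that left out a library and turned to -0.16 with the correction for GC content and length, which gave 1 higher and 6 lower and moved HMOX1 to 0.45, SLC7A11 to -0.56, GCLM to -0.51 and GCLC to -0.22.

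An interaction term in 1 fit of all 24 libraries tested whether A549 and Huh7 differed in the change with a herb, over the 12924 genes measured in both. With P. chinensis 7 members differed, where 19.6% of genes did. With B. chinense 4 differed, where 11.6% did, and with P. umbellatus 8 differed, where 34.4% did. NQO1, HMOX1 and ALDH3A1 differed with every herb, and HMOX1 in the opposite direction from the other two.

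For HMOX1 the change in A549 minus that in Huh7 was -1.93 ± 0.180 (adjusted p = 9.86e-08) with P. chinensis, where B. chinense gave -0.78 ± 0.182 (0.006241) and P. umbellatus -0.80 ± 0.182 (0.002003), all by edgeR on the log2 scale. It rose with each herb in both lines, and by a larger ratio in Huh7, from 33.2 ± 2.58 CPM in controls there against 209 ± 8.28 in A549. For NQO1 the differences were 0.44, 0.45 and 0.39, each with an SE of 0.0616 (adjusted p at most 8.526e-05, edgeR), from values that were lower than control in Huh7 with each herb and near or above control in A549. For ALDH3A1 they were 1.53 ± 0.361, 1.21 ± 0.369 and 1.77 ± 0.425 (adjusted p = 0.00281, 0.04098 and 0.002525, edgeR). The B. chinense call on ALDH3A1 was lost in 13 of the fits that left out a library and under 4 alternatives, and voom with quality weights called ALDH3A1 with no herb (adjusted p from 0.09478 to 0.3262).

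SLC7A11 fell in Huh7 and did not fall in A549, by a difference of 0.92 ± 0.125 with P. chinensis (adjusted p = 1.385e-05) and 0.87 ± 0.125 with B. chinense (6.455e-05, edgeR). With P. umbellatus the difference was 0.15 ± 0.125 and not called (adjusted p = 0.3651, edgeR), but this rests on the Huh7 library that stood apart: without it the difference was 0.33 and called (adjusted p = 0.001547, edgeR). Voom with quality weights and the GC and length correction called it too, at 0.32 and 0.50. GCLC moved in opposite directions in the lines, falling in A549 and rising in Huh7 with P. chinensis and P. umbellatus, and differed by -0.67 ± 0.0868 (adjusted p = 7.548e-06) and -0.85 ± 0.0874 (5.452e-07, edgeR). TXNRD1 rose in both lines with these herbs and by a smaller ratio in A549, with differences of -0.27 and -0.32. The differences of SRXN1 were -0.28 and -0.30 (adjusted p of both genes from 0.0004518 to 0.003012, edgeR). GCLM and AKR1B10 differed with P. umbellatus alone among the calls, by -0.44 ± 0.119 and -0.59 ± 0.162. Without the library that stood apart the GCLM difference was -0.26 and called (adjusted p = 0.003228, edgeR). It was -0.10 and not called after the correction for GC content and length (adjusted p = 0.2812), and the AKR1B10 one was not called with voom (adjusted p = 0.1819). OSGIN1 differed with none in these fits. With P. chinensis its difference passed with the correction (-0.37, adjusted p = 0.02407) and on the groups compared alone (-0.26, adjusted p = 0.02446). With P. umbellatus the correction turned 0.37 to -0.53 (adjusted p = 0.002439), and the difference was 0.13 without the library that stood apart. The correction also moved the P. umbellatus differences of HMOX1 to -1.31, TXNRD1 to -0.18, SRXN1 to -0.49 and ALDH3A1 to 1.14, the last not called (adjusted p = 0.07003).

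**Figure D4:**
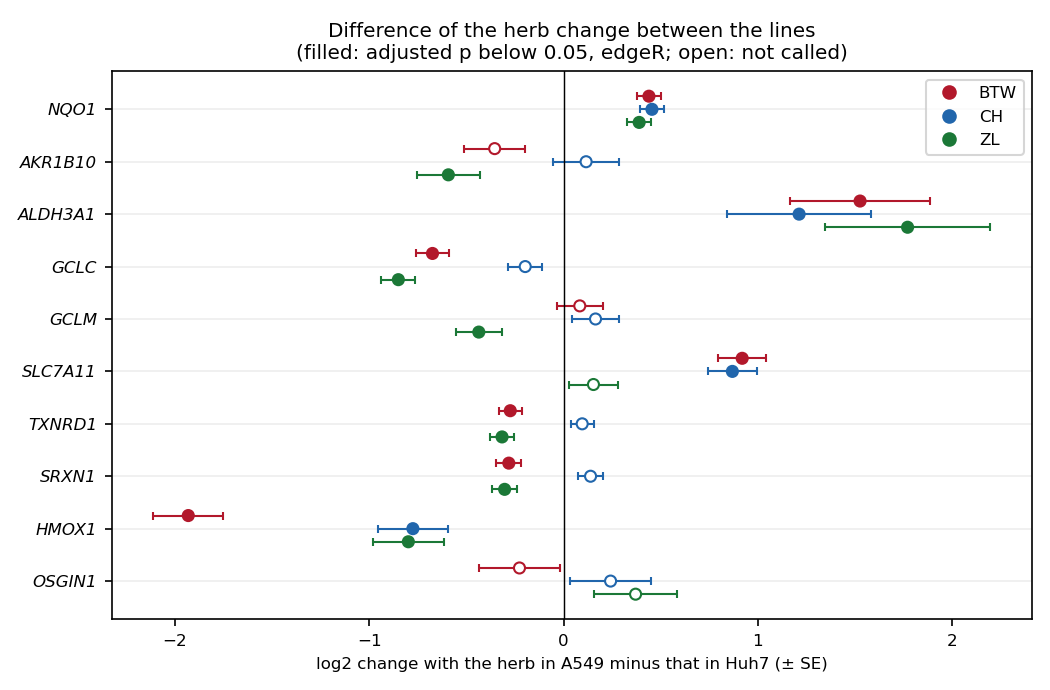
Change with each herb in A549 minus the change in Huh7, on the log2 scale with its SE (x axis), for each member. Filled circles passed an adjusted p of 0.05; values left of 0 are larger in Huh7, as for HMOX1 at -1.93 to -0.78, and values right of 0 larger in A549, as for NQO1 at 0.39 to 0.45 and ALDH3A1 at 1.21 to 1.77.

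In A549 the wider pathway list had more genes that fell than rose with P. chinensis, and similar numbers with the other two herbs. In all, 6 of its 62 tested genes rose and 20 fell with P. chinensis, 11 rose and 10 fell with B. chinense, and 9 rose and 12 fell with P. umbellatus, with median log2 changes of -0.05, 0.03 and -0.07. Of all genes tested, 15.8%, 13.1% and 13.4% rose and 17.1%, 15.0% and 14.8% fell in the same order. The split of the list depended on the correction for GC content and length, with which 11 rose and 14 fell for BTW, 17 and 8 for CH, and 16 and 9 for ZL. SESN2 rose 3.23-, 2.62- and 2.22-fold in the order of the herbs, from 6.5 ± 0.705 CPM to 21.9 ± 0.810, 17.9 ± 1.90 and 15.4 ± 1.37. CES1, a carboxylesterase, rose 1.68-, 2.38- and 2.39-fold. RIT1, a small GTPase, rose 1.55-fold with P. chinensis, the multidrug transporter ABCC3 1.44-fold with B. chinense, and AKR1B1 1.55-fold with P. umbellatus. Genes are named with a herb only where they were among its 3 highest or 3 lowest changes, so other herbs may have moved them too. AKR1B1 was also at 1302 ± 127 CPM with P. chinensis and 1299 ± 104 with B. chinense, against 966 ± 47.4 in controls. ALDH1A1, the retinaldehyde dehydrogenase, fell from 5137 ± 173 CPM to 3102 ± 308, 3444 ± 141 and 3451 ± 87.0, a fall by 0.76, 0.62 and 0.64 on the log2 scale (adjusted p at most 1.73e-06, edgeR). PGD, an enzyme of the pentose phosphate pathway, fell by 0.55 with P. chinensis and by 0.35 with B. chinense. With P. umbellatus PGD was at 1214 ± 34.8 CPM, against 1460 ± 47.9 in controls. CYP4F3, a hydroxylase of leukotrienes, fell by 0.57, 0.53 and 0.80, and PIR by 0.40 with P. umbellatus.

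In Huh7, 11 of 61 genes of the wider list rose and 9 fell with P. chinensis, 1 rose and none fell with B. chinense, and 11 rose and 10 fell with P. umbellatus. Of all genes, 10.5%, 0.519% and 19.3% rose and 10.5%, 0.757% and 17.8% fell in that order. Without the library that stood apart, 16 rose and 15 fell with P. chinensis, 7 rose and 7 fell with B. chinense, and 13 rose and 10 fell with P. umbellatus. With the GC and length correction the counts were 13 and 15, 7 and 4, and 12 and 2. The shares over all genes above belong to the fit of all libraries without the correction, not to these refits. Calls over all genes also depended on the fit, for B. chinense from 116 with the replicate block to 1229 with voom. UGT1A1, the bilirubin glucuronosyltransferase, was the gene called with B. chinense in the fit of all libraries, and it rose 2.35-, 1.67- and 2.95-fold with the 3 herbs, from 7.82 ± 1.40 CPM to 17.9 ± 2.17, 13 ± 1.05 and 22.6 ± 0.548 (adjusted p = 9.823e-05, 0.0338 and 0.0001259, edgeR). UGT1A genes share exons, so their reads may be divided. RIT1 rose 1.81-fold with P. chinensis and 1.60-fold with P. umbellatus, SESN2 1.45-fold with P. chinensis, and UGDH, which makes UDP-glucuronate, 1.46-fold with P. umbellatus. ABCC1, CYP4F3 and ABCB6 fell by 1.0, 0.87 and 0.74 with P. chinensis. Naming of genes with a herb was limited here in the same way as in A549. SLC6A6, the taurine transporter, stood at 360, 272 and 314 CPM in controls and at 90.7, 11.1 and 137 with P. umbellatus, where it fell by 1.92 (SE 0.599, adjusted p = 0.02624, edgeR). The lowest value, from 80 counts, was in the library that stood apart, and without it the fall was by 1.42 (adjusted p = 0.01893, edgeR). The gamma-glutamyltransferase GGT1 fell with P. umbellatus by 1.81 (SE 0.230, adjusted p = 0.000513, edgeR), by 1.97 without that library and by 1.11 with the correction. The channel gene PANX2 fell by 0.79, but was at 0.19 and not called with the correction (adjusted p = 0.5047). The rises of RIT1 and UGDH with P. umbellatus were smaller with the correction, at log2 changes of 0.39 and 0.27 in place of 0.67 and 0.55, and both passed.

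NFE2L2 mRNA was called with no herb in A549, at log2 changes of 0.03, -0.01 and -0.10. In Huh7 it rose 1.20-fold with P. chinensis (adjusted p = 0.03927) and 1.43-fold with P. umbellatus (adjusted p = 0.001453, edgeR), and its change of 0.19 with B. chinense was not called (adjusted p = 0.3674, but 0.02106 without the P. umbellatus library that stood apart). KEAP1 fell in A549 by 0.27 with P. chinensis and by 0.23 with P. umbellatus, and in Huh7 by 0.53 with P. umbellatus. The P. umbellatus values in Huh7 depended on the correction for GC content and length, which gave 0.21 for NFE2L2 (adjusted p = 0.002908), 0.19 for BACH1 and 0.11 for KEAP1, the last not called (adjusted p = 0.4038). SQSTM1 rose 1.80-, 1.65- and 1.66-fold in A549, from 816 ± 31.1 CPM to 1499 ± 69.8, 1381 ± 54.4 and 1411 ± 43.0 (adjusted p at most 1.14e-07, edgeR), and in Huh7 1.38-fold with P. chinensis. In Huh7 with P. umbellatus SQSTM1 was at 0.05 and not called, but at 0.18 without the library that stood apart and at 0.46 with the correction, both called (adjusted p = 0.03353 and 0.0001557, edgeR). BACH1 rose in 5 of the 6 comparisons, by 0.26 to 0.56, and its change of 0.11 with B. chinense in Huh7 was not called. HMOX1 rose in each of these 6 comparisons. No BACH1 protein was measured, and the part of BACH1 in the change of HMOX1 was not tested.

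The small MAF genes differed between the lines. MAFK fell in A549 with the 3 herbs by 0.61, 0.74 and 0.70 and rose in Huh7 with P. chinensis by a log2 change of 0.78 (adjusted p = 0.001789, edgeR), and the difference between the lines with P. chinensis was -1.33 (adjusted p = 3.97e-06, edgeR). MAFF rose with P. chinensis in both lines, 1.70-fold in A549 and 1.85-fold in Huh7. In A549 it was low and the groups overlapped, at 3.98 to 8.05 CPM in controls (32 to 82 counts) and 7.51 to 12.7 with P. chinensis. MAFG rose in A549 with B. chinense and P. umbellatus by 0.19 and 0.16. CUL3 fell in A549 with P. chinensis by 0.23 and rose in Huh7 with P. umbellatus by 0.22. RBX1 fell in A549 with B. chinense by 0.41 and with P. umbellatus by 0.38. Its P. umbellatus libraries, at 26.6 to 30.3 CPM, overlapped the controls, at 29.4 to 41.7. NFE2L1 was called in none of the 6 comparisons. With the correction for GC content and length the A549 calls on MAFG and RBX1 and the Huh7 call on CUL3 were lost, CUL3 turned to -0.12, MAFK was called higher in Huh7 with P. umbellatus (0.52, adjusted p = 0.0007174), and NFE2L1 was called in 3 comparisons. Without the library that stood apart NFE2L1 was called in Huh7 with P. chinensis (0.22, adjusted p = 0.001278).

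**Figure D5:**
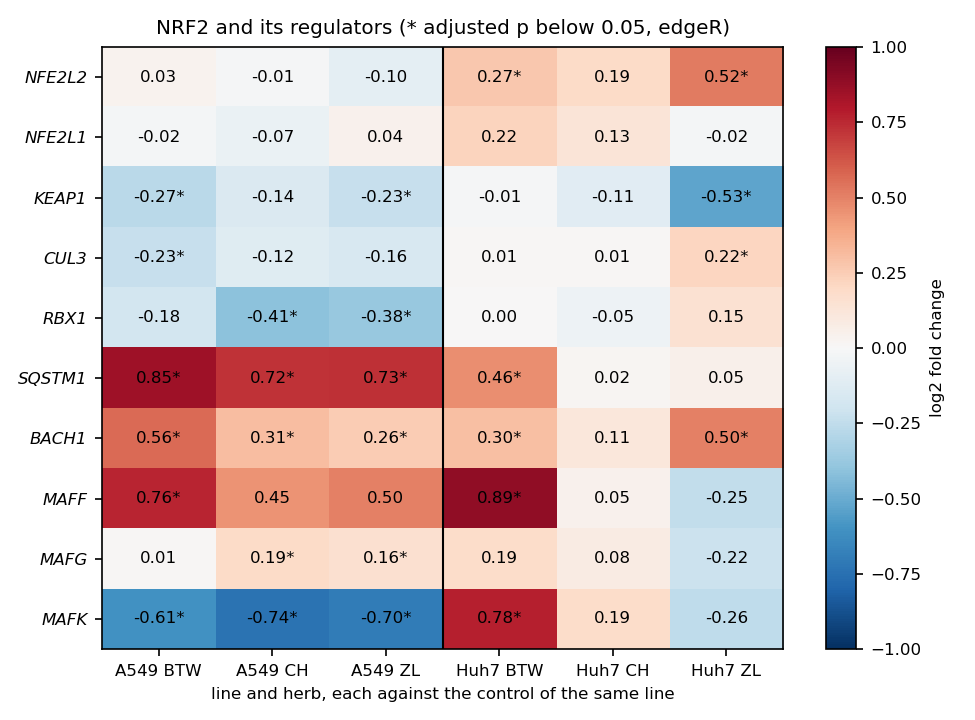
Log2 fold change of NFE2L2 and 9 regulators or partners of NRF2 with each herb against the control of the same line, as coloured cells with the value written in each. Asterisks mark an adjusted p below 0.05; SQSTM1 is at 0.72 to 0.85 in A549 and at 0.02 to 0.46 in Huh7, and MAFK falls in the A549 columns and rises in the Huh7 P. chinensis column.

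Members of this set answer to other factors too, so genes of 2 such factors were read in the same fits. The aryl hydrocarbon receptor, a sensor of aromatic compounds, induces CYP1A1, CYP1B1 and TIPARP, and is also known to induce ALDH3A1 and NQO1. Of the 6 genes of the receptor's list, 4 rose in A549 with each herb. With P. chinensis 1 of the list fell there, by 0.48 on the log2 scale. In Huh7 the numbers that rose were 4, 3 and 4 in the order of the herbs, and none fell. The shares over all genes are those given above. CYP1A1, CYP1B1 and TIPARP rose with each herb in both lines. In A549 CYP1A1 went from 0.311 ± 0.155 CPM to 5.38 ± 0.988, 7.14 ± 4.01 and 5.90 ± 1.14, CYP1B1 rose 2.28-, 3.71- and 3.36-fold, and TIPARP 3.56-, 3.64- and 3.54-fold. In Huh7 CYP1A1 rose 2.93-, 2.19- and 2.83-fold from 134 ± 4.30 CPM, CYP1B1 7.82-, 2.71- and 5.13-fold and TIPARP 2.21-, 1.64- and 2.0-fold. AHRR, the receptor's repressor, rose in A549 with each herb. NQO1, by contrast, fell in Huh7 with P. chinensis and B. chinense, and its lower value with P. umbellatus was called only under some alternatives. The part of this receptor in the members' changes was not tested.

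ATF4, the factor of the amino acid and stress response, is known to induce SLC7A11 besides ASNS, PSAT1, PHGDH, TRIB3 and CHAC1. All 8 genes of the ATF4 list were lower in A549 controls than in Huh7 controls, whereas SLC7A11 was higher. In Huh7 2 of the 8 genes rose and 4 fell with BTW, none rose and 3 fell with CH, and 2 rose and 6 fell with ZL. The shares over all genes are those given above. In the order BTW, CH and ZL, ASNS fell by 1.08, 0.85 and 0.43, PSAT1 by 1.12, 0.53 and 0.36 and TRIB3 by 0.96, 0.66 and 0.87. SLC7A11 fell by 0.88 with BTW and 0.67 with CH. With ZL it was not called, at 0.13, a direction that rests on the library that stood apart. The correction for GC content and length left TRIB3 at -0.16 with ZL, not called (adjusted p = 0.3064). In A549 the list moved both ways, with 3 of 8 genes higher and 4 lower with BTW, 1 and 5 with CH, and 1 and 4 with ZL, and SLC7A11 fell with none. ASNS fell by 0.23, 0.52 and 0.37, PSAT1 by 0.36, 0.29 and 0.17 and PHGDH by 0.47, 0.59 and 0.44, of which ASNS with BTW and PSAT1 with ZL were not called with the correction. TRIB3 fell by 0.35 with CH and was not called with BTW or ZL, at -0.05 and -0.06. CHAC1 rose 1.95-fold with BTW (adjusted p = 0.005173, edgeR), from 3.03 ± 0.472 to 6.25 ± 0.567 CPM on 20 to 72 counts per library. ATF3 rose with each herb in A549 and with P. chinensis and P. umbellatus in Huh7, and DDIT3 rose with P. chinensis in both lines and with P. umbellatus in Huh7. Both were also called with B. chinense in Huh7 without the library that stood apart (adjusted p = 0.01813 for ATF3 and 0.01619 for DDIT3, edgeR). The part of ATF4 in the change of SLC7A11 was not tested.

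As a description of pattern, the genes most like the members were ranked by Pearson r with the members' mean centred log2 level over the 12 libraries of a line. In A549 they were CALR (0.953), SLC48A1 (0.946), HIPK2 (0.939), EPHX1 (0.934) and GPC1 (0.933), of which SLC48A1, a heme transporter, and EPHX1, the microsomal epoxide hydrolase, were on the wider NRF2 list. In Huh7 they were QTRT2 (0.920), DTNA (0.916), LNX2 (0.910), CRK (0.902) and PCNX4 (0.895), none of them on that list. The libraries of a group share a treatment, so these values mostly follow differences between 4 groups. Levels were not scaled by gene, so members with large changes or few counts weigh most in the mean. Pairs of members had r from -0.741 to 0.945 in A549 and from -0.889 to 0.993 in Huh7. Likeness to the mean is thus not likeness to each member.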

How the data were processed

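RNA was sequenced in 24 libraries, 3 for each of 4 treatments in A549 and Huh7 cells. The authors sequenced ribosome-depleted total RNA in paired ends, estimated counts with kallisto against Ensembl transcripts of GRCh38.p13 (per the labels and methods, with FastQC for quality) and deposited the estimated counts of each gene, in whole numbers that were not normalized. How transcripts were summed to genes is not given in the sources used here. Estimated counts divide reads among paralogs, and 1 of the 14585 identifiers had no entry in the annotation used here and was left out.

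The counts were analysed in R 4.3.3 with edgeR 4.0.16 (TMM, quasi-likelihood test, prior count 2, genes with a mean above 5 counts, Benjamini-Hochberg over all genes tested, adjusted p below 0.05). Each line was fitted with its 12 libraries, the lines' controls with all 24 libraries, and the interactions on genes above the filter in both lines. Values after ± are standard errors for log2 changes and SDs for CPM. The same-numbered replicates were checked for pairing and did not deviate together, with correlations from -0.062 to 0.052. The members, the lists and the tests were chosen with earlier results of these data known, and the lists were written from general knowledge. Named genes were the members, 10 regulators, and among called genes of the wider list with a mean of at least 50 counts up to 3 with the highest and 3 with the lowest changes per herb and line (up to 4 each between the lines' controls) where groups did not overlap. Positions came from GENCODE v44 (GRCh38) and promoters from RefSeq (GRCh38.p14). Alternatives were DESeq2 1.42.0, RLE and upper quartile scaling, no filter and filterByExpr, voom with quality weights (limma 3.58.1), the groups compared alone, the replicate block, a correction for GC content and length (added after the data were seen) and leaving out each library. Scripts were tested on simulated data. Depth limits low genes such as ALDH3A1 in Huh7.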

Additional observations from a re-analysis of the deposited data

Results flagged for a closer look

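The change with a herb differed between A549 and Huh7, by edgeR's test of the interaction at an adjusted p below 0.05, for 19 pairs of member and herb. Each value is the log2 change in A549 minus that in Huh7. With P. chinensis the differences were 0.44 for NQO1, -1.93 for HMOX1, -0.67 for GCLC, -0.27 for TXNRD1, -0.28 for SRXN1, 0.92 for SLC7A11 and 1.53 for ALDH3A1. With B. chinense they were 0.45 for NQO1, -0.78 for HMOX1, 0.87 for SLC7A11 and 1.21 for ALDH3A1. With P. umbellatus they were 0.39 for NQO1, -0.80 for HMOX1, -0.44 for GCLM, -0.85 for GCLC, -0.32 for TXNRD1, -0.30 for SRXN1, -0.59 for AKR1B10 and 1.77 for ALDH3A1. The values of ALDH3A1 and AKR1B10 in Huh7 rest on 5 to 34 and 53 to 173 counts per library. No group had more than 3 samples, so single samples were not tested as outliers.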

How the results depend on the processing

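Over the 140 differences of a member in a comparison, the alternatives kept direction and side of the threshold in 1175 cases, gained the call in 43, lost it in 20 and turned the direction in 22, and leaving out 1 library gave 2069, 19, 56 and 16. The causes were not tested. The numbers of members called were within 1.5 times the reported ones except as follows. P. chinensis against B. chinense in A549 called 7 with DESeq2, 0 on the groups compared alone and 0 to 5 without 1 library; P. chinensis against P. umbellatus in A549 called 3 on the groups compared alone. In Huh7, B. chinense against control called 5 on the groups compared alone and 1 to 3 without 1 library (1 without B. chinense replicate 1 or 3 or control replicate 2 or 3), and P. chinensis against B. chinense called 6 with voom, 5 with the GC and length correction, 6 on the groups compared alone and 3 to 5 without 1 library. The replicate numbers did not pair the samples. The replicate block gave 7 members for P. chinensis and 6 for B. chinense in A549 and 2 for B. chinense in Huh7, losing NQO1 there (adjusted p = 0.05697, edgeR).

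The following directions turned. Against control in A549, upper quartile scaling gave 0.0231 for NQO1 and 0.0508 for SLC7A11 with P. chinensis and 0.0246 for GCLM with B. chinense, voom 0.0019 and the GC and length correction 0.0103 for SLC7A11 with P. chinensis, and the correction 0.0515 for GCLM with B. chinense. For P. chinensis against P. umbellatus in A549, OSGIN1 was 0.0138 with upper quartile scaling and 0.0206 with the correction, and SRXN1 -0.0044 with filterByExpr and -0.0068 with the correction. TXNRD1 was -0.0013 with filterByExpr for P. chinensis against B. chinense. In Huh7 with P. umbellatus, voom gave -0.0218 for SLC7A11 and 0.0658 for ALDH3A1, and the correction -0.29 for SLC7A11, 0.41 for OSGIN1 and 0.32 for ALDH3A1. The correction also gave -0.0512 for AKR1B10 with P. chinensis and 0.049 for OSGIN1 with B. chinense, for P. chinensis against P. umbellatus 0.0762 for TXNRD1 and -0.16 for OSGIN1, and -0.53 for the OSGIN1 difference between lines with P. umbellatus. Upper quartile scaling gave 0.0089 for SRXN1 for P. chinensis against P. umbellatus in Huh7.

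Leaving out 1 library gave ranges across 0 for values that were not called. In A549 these were -0.0526 to 0.0155 for OSGIN1 and -0.0168 to 0.0297 for SRXN1 (P. chinensis against P. umbellatus), -0.00055 to 0.0168 for TXNRD1 (against B. chinense) and -0.0406 to 0.0317 for SLC7A11 (P. chinensis against control). In Huh7 they were -0.0948 to 0.19 for AKR1B10 with P. chinensis, -0.13 to 0.0838 for OSGIN1 and -0.11 to 0.55 for ALDH3A1 with B. chinense, -0.0476 to 0.22 for SLC7A11 with P. umbellatus, and -0.22 to 0.0384 for ALDH3A1 (P. chinensis against P. umbellatus). The AKR1B10 difference between lines with B. chinense ranged from -0.0367 to 0.22.

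Counts over all genes moved by over 1.5 times in several comparisons. The shares over all genes given beside members and lists are those of the fits of all libraries without the correction. In A549, P. chinensis against B. chinense called 198 genes, 33 on the groups compared alone and 455 with DESeq2, and against P. umbellatus 410, 229 and 649. In Huh7, P. chinensis called 2901 (6325 with voom), B. chinense 177 (116 with the replicate block, 1229 with voom) and P. umbellatus 5138 (1259 on the groups compared alone), and P. chinensis against B. chinense called 1083 (3344 with voom) and against P. umbellatus 4907 (2061 on the groups compared alone). Differences between lines with P. chinensis and B. chinense were called for 2529 and 1499 genes (4017 and 2483 with voom). Depth limited ALDH3A1 in Huh7, at 5 to 34 counts.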
